A study of Mus musculus with 8 samples.

Results

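The nuclear genes of oxidative phosphorylation were followed in mouse embryonic stem cells that carried the HNRNPK 6A mutation and in wild type cells, before and after differentiation. Members were chosen by gene symbol alone, as the genes named for a subunit of NADH dehydrogenase (Nduf followed by a, b, c, s or v and a number), succinate dehydrogenase (Sdha to Sdhd), the cytochrome bc1 complex (Uqcr), cytochrome c oxidase (Cox5 to Cox8 and any Cox4 symbol with a letter a to c) or ATP synthase (Atp5). The rule uses symbols and no measured value. The symbols matched 82 of the 24421 genes in the tables, of which 37 were filed under complex I, 4 under complex II, 8 under complex III, 16 under complex IV and 17 under complex V. A few subunits have symbols of another form and fall outside it, namely Cox4i1, Cox4i2, Ndufab1 and Cyc1, and these are given separately. Atp5s and Atp5sl carry the name of the complex but are not subunits of its core, and Ndufa4, filed here under complex I by its symbol, is now placed with complex IV.

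The cells were a hybrid line of CAST/Ei and 129/Sv/Jae origin. The 4 groups were 6A cells at day 14, WT cells at day 14, 6A cells at day 0 and WT cells at day 0, with 2 libraries each. All groups shared the same hybrid background. HNRNPK is an RNA-binding protein. The labels name the mutation 6A without saying which residues it alters. The labels do not say whether a genotype was 1 clone or several. Day 0 cells had grown with leukemia inhibitory factor over a feeder layer of irradiated mouse embryonic fibroblasts that was taken off before harvest. Day 14 cultures had lost that factor, formed embryoid bodies during 4 days in suspension, attached to dishes from day 5 and were collected as mixed cultures. The design sentence of the series says day 7, while the label of each sample says day 14, which is used here.

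Oxidative phosphorylation makes ATP at the inner membrane of the mitochondrion. Complex I takes electrons from NADH and complex II from succinate, complex III hands them to cytochrome c, complex IV gives them to oxygen, and complex V uses the proton gradient to make ATP. Complexes I, III, IV and V combine nuclear subunits with subunits made from mitochondrial DNA, whereas complex II is nuclear throughout. Several small subunits of complex IV exist as pairs of genes, of which one is expressed widely and the other in heart and skeletal muscle, in testis or at low oxygen. In mouse, Cox6a2, Cox7a1 and Cox8b are the muscle forms of Cox6a1, Cox7a2 and Cox8a. Pluripotent stem cells are known for a largely glycolytic metabolism, and heart muscle for a mitochondria-rich one.

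Promoter sequence was read for the member genes that had an annotated window. These include the muscle forms Cox7a1 and Cox8b, while no window was found for Cox6a2 or Ndufa4l2. RefSeq windows (GRCm38.p6) were found for 69 of the 82 genes, 75 windows in all, and the 250 bases before the annotated start were searched on both strands, with overlapping matches counted. The letters of NRF1, a known activator of respiratory genes, are GCGC and TGCGC with 1 base of any kind between them, and stood in 18.67% of these windows and in 3.738% of all 32851 windows of the same length. The letters of GABPA, CCGGAAG, stood in 16% of them against 6.907% of all, and those of YY1, AANATGGCG, in 5.333% against 1.12%. The ERR letters AAGGTCA stood in 6.667% against 4.079%. Letters known from muscle genes stood in few of the 75 windows, and none of these shares was tested against the rest. Those of MEF2, CTA and TAG with 4 bases of any kind between them, stood in 1 window (1.333% against 3.202%), and the MyoD E-box CAGCTG in 6 (8% against 13%), while the TATAAA letters of the TATA box stood in 9.333% against 12.37%. The median GC content was 56% in these windows and 52.4% in all. A match is a description of letters, not a shown binding site, and no match says only that the letters are not in this window.

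5 windows are shown because the results below turn on these genes or on their pairs. Capitals mark the matched letters: NRF1 in Ndufs6, 2 NRF1 matches and then GABPA in Cox6a1, and the MyoD E-box in Cox8b. In Cox6a1 the NRF1 match nearer the start and the GABPA match read on the opposite strand. Cox7a2 and Cox7a1 hold no match. All run 5′ to 3′ on the strand of the gene and end at the base before the start. They lie at chr13:73328483-73328732 (minus strand, Ndufs6), chr5:115348959-115349208 (minus, Cox6a1), chr9:79759854-79760103 (minus, Cox7a2), chr7:30183921-30184170 (plus, Cox7a1) and chr7:140900447-140900696 (minus, Cox8b), in GRCm38.p6 coordinates, which is the build mm10 of the deposited tables.
Ndufs6: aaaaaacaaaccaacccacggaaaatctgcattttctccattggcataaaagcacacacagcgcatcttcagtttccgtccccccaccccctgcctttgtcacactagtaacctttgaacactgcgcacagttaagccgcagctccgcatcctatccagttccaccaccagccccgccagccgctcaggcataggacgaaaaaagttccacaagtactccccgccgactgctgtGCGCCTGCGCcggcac
Cox6a1: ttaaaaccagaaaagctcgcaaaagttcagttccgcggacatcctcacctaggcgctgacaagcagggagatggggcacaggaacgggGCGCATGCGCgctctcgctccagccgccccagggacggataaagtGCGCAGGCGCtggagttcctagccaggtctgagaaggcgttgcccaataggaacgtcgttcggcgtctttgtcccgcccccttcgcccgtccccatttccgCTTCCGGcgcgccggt
Cox7a2: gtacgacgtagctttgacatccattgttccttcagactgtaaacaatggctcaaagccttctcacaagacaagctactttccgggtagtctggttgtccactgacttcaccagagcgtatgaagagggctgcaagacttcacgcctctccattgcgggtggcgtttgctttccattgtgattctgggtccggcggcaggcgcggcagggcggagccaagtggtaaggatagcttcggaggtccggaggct
Cox7a1: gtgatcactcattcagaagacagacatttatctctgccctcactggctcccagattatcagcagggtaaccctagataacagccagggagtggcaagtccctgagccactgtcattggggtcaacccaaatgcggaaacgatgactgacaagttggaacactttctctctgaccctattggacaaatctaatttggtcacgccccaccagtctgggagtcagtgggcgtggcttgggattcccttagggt
Cox8b: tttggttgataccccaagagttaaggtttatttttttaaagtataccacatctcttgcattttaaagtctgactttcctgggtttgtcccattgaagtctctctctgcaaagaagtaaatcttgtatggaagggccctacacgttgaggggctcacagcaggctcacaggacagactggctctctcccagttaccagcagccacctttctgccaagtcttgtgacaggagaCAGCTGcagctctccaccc

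The libraries held between 8146684 and 15540163 counts, and the 82 genes took between 0.543% and 0.906% of them. Values are normalised read counts (CPM), scaled to the TMM-adjusted library size, on which a floor of 3 counts is between 0.200 and 0.370 CPM, and they carry counting error as well as the spread between libraries. Changes were tested with edgeR's quasi-likelihood test over all 15458 genes that passed the filter on low counts, and a gene was called where its p, adjusted by Benjamini and Hochberg's method, was under 0.05. Of the 82 genes 78 passed that filter, while Cox7b2, Cox8b, Cox8c and Ndufs5 did not. Groups of 2 libraries often do not overlap. Between genotypes this held at day 14 for 25 of the 78 genes and for 8757 of all 15458. At day 0 it held for 25 and 7056. Between days it held for 69 and 13428 in 6A and for 67 and 13334 in WT. Hnrnpk itself was at 366 ± 26.3 CPM in 6A and 485 ± 15.1 in WT at day 14, and at 533 ± 7.54 in 6A and 794 ± 121 in WT at day 0 (SD, n = 2 each), lower in 6A at both days (log2 -0.40 and -0.58, edgeR adjusted p = 0.043 and 0.04). The pluripotency markers Pou5f1, Nanog, Sox2, Zfp42 and Dppa5a summed to between 320 and 416 CPM in the day 14 libraries and between 3185 and 3309 in the day 0 libraries, which goes with the labels. The Y-linked transcripts Ddx3y, Eif2s3y, Kdm5d and Uty, listed as markers of feeder fibroblasts, summed to 0.0966 and 0 CPM in 6A and to 0 in both WT libraries at day 14, and to 43.4 and 46.9 CPM in 6A and 28.3 and 28.2 in WT at day 0.

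Levels per length are CPM divided by the median length of the gene's protein-coding transcripts in GENCODE M21. Atp5b, the catalytic beta subunit of ATP synthase, stood highest, with 386 ± 36.1 in 6A and 370 ± 48.7 in WT at day 14, and 729 ± 56.2 in 6A and 811 ± 126 in WT at day 0 (CPM per kilobase, SD, n = 2 each). Atp5a1, the alpha subunit that forms the catalytic head with it, came next over the mean of the 4 groups at 293 CPM per kilobase, and Ndufa4 followed at 286, a gap smaller than the spread between their libraries. The lowest were Cox8c at 0.173, Cox8b at 0.169 and Ndufs5 at 0.0508. Ndufs5, an accessory subunit of complex I, had 3 counts over all 8 libraries. Gapdh and Eno1, glycolytic genes that every cell uses and that have near-identical copies in the genome, were also low, with Gapdh at 18.4 and 13.6 CPM in 6A and 18.3 and 10.3 in WT at day 14. A low count of a gene with such copies therefore cannot be read as low expression, since the labels do not say how reads with several matches were counted.

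Differentiated cultures had lower levels of most of these genes than undifferentiated cells, in both genotypes. In 6A cells 56 of the 78 tested genes fell and 3 rose, where 36.6% of all genes tested were called lower, 35.4% higher and 71.9% in either direction. In WT cells 54 fell and 5 rose, where 36.8% of all genes were called lower, 38.4% higher and 75.2% in either direction. The median log2 fold change of the 78 genes was -0.57 in 6A, beside -0.03 over all genes, and -0.60 in WT, beside 0.04 over all genes. Of the 78 genes 52 fell in both genotypes, 3 rose in both and 15 were called in neither. The summed level of the 82 genes was 5571 and 5179 CPM in 6A and 5772 and 5088 in WT at day 14, against 8628 and 8321 in 6A and 9637 and 8188 in WT at day 0. No day 14 library reached a day 0 library, and the ratio of the means of day 14 to day 0 was 0.634 in 6A and 0.609 in WT. These are shares of each library's RNA, so fewer cells of a type and less RNA per cell cannot be told apart.

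**Figure D1:**
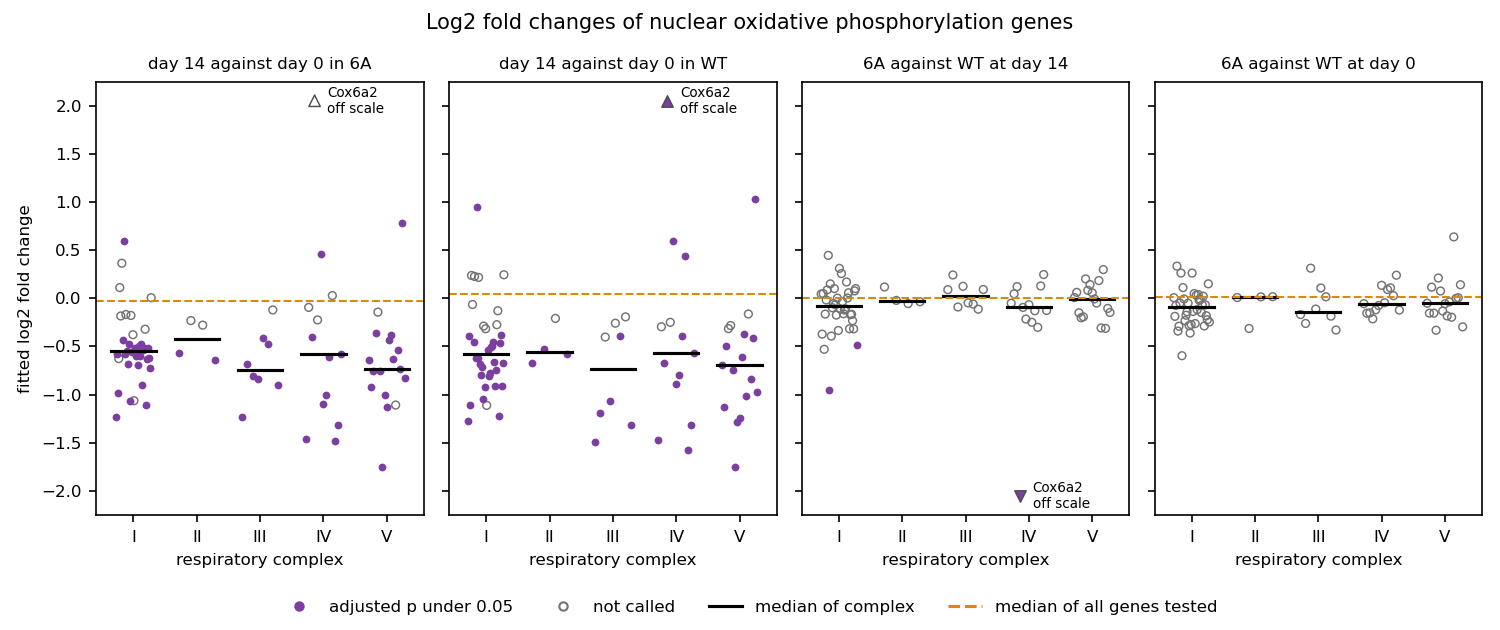
Fitted log2 fold change of each tested gene, by complex, for 4 comparisons (panels, left to right: the day comparison in 6A, the day comparison in WT, the genotype comparison at day 14 and that at day 0). Filled points are genes with an adjusted p under 0.05, bars are medians of a complex, the dashed line is the median of all genes tested, and triangles mark Cox6a2, which lies beyond the axis; most points lie below the dashed line in the day panels and around it in the genotype panels.

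The summed level of each of the 5 complexes was lower at day 14 than at day 0 in both genotypes. The sums for complex I were 1613 and 1503 CPM in 6A and 1701 and 1526 in WT at day 14, against 2260 and 2251 in 6A and 2566 and 2229 in WT at day 0. Complex V had the lowest ratio of day 14 to day 0, 0.588 in 6A and 0.553 in WT, and complex II the highest, 0.724 and 0.691. By gene, the counts stand beside 36.6% of all genes called lower in 6A and 36.8% in WT, and 35.4% and 38.4% called higher. Complex I had 25 of 36 tested genes lower and 1 higher in each genotype. Complex II had 2 of 4 lower in 6A and 3 of 4 in WT, and complex III had 7 of 8 lower in 6A and 5 of 8 in WT. Complex IV had 8 of 13 lower in each genotype, with 1 higher in 6A and 3 higher in WT. Complex V had 14 of 17 lower in 6A and 13 of 17 in WT, with 1 higher in each. The medians by complex ran from -0.75 for complex III to -0.42 for complex II in 6A, and from -0.74 for complex III to -0.55 for complex II in WT (log2). Complexes were not tested against each other or against the shares of all genes.

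**Figure D2:**
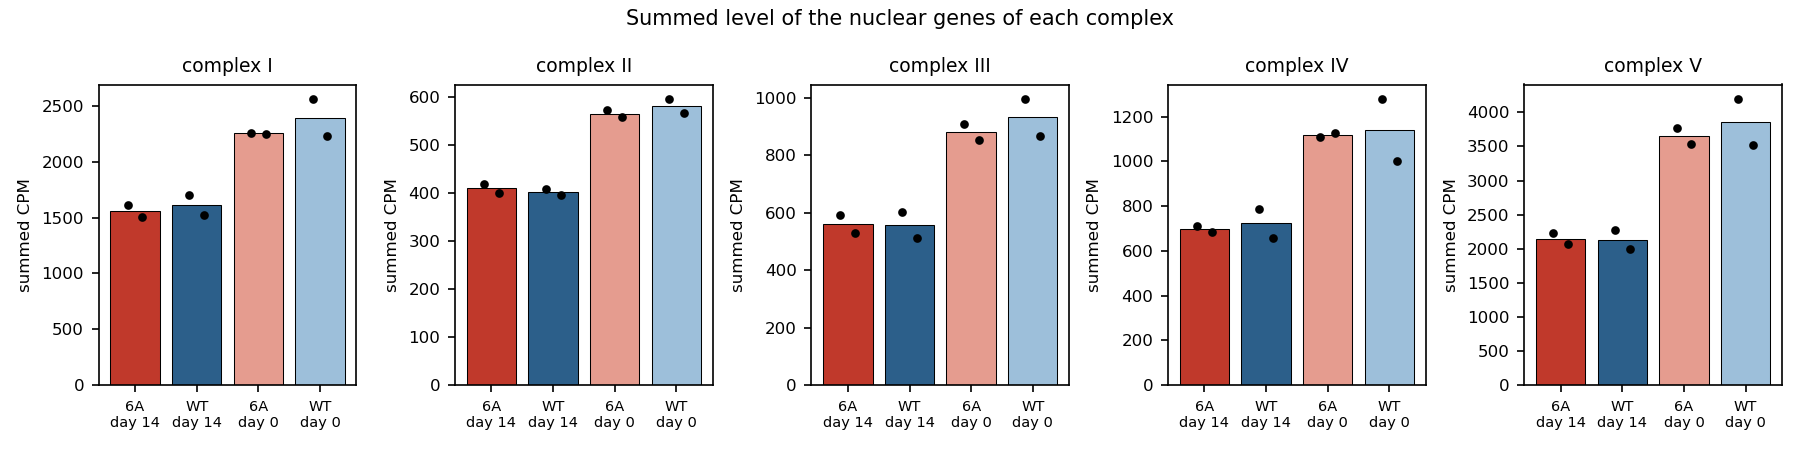
Summed CPM of the nuclear genes of each complex (1 panel per complex, each axis from 0), with bars for the mean of 2 libraries and points for the libraries. In every panel both day 14 groups lie below both day 0 groups, while 6A and WT bars of the same day lie close together.

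Among the largest falls were small subunits of complexes IV and V. Atp5g1 is 1 of 3 genes for the c subunit, which forms the rotating ring of ATP synthase. It had 14.5 and 17.8 CPM in 6A and 15.2 and 15.3 in WT at day 14, against 43.2 and 64.8 in 6A and 52.2 and 50.6 in WT at day 0. The days did not overlap, and the fall was -1.75 ± 0.19 on the log2 scale in both genotypes (edgeR adjusted p = 1.4e-06 in 6A and 1.3e-06 in WT). Atp5g3, the c subunit gene with the highest level, fell by 1.13 in 6A and by 1.24 in WT, and Atp5g2 by 1.01 in 6A and by 1.28 in WT on the log2 scale, so all 3 genes for this protein fell. Without WT day 14 replicate 2 or WT day 0 replicate 2, the call of Atp5g2 in WT was lost (highest edgeR adjusted p = 0.077).

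Cox7b, an X-linked subunit of complex IV, had 89.1 and 87.6 CPM in 6A and 84.3 and 77.6 in WT at day 14, against 248 and 245 in 6A and 303 and 181 in WT at day 0. The WT day 0 libraries stood apart from each other but both above every day 14 library, and the log2 fold change was -1.48 ± 0.19 in 6A and -1.58 ± 0.20 in WT (edgeR adjusted p = 3.9e-05 and 2.1e-05). Cox5a, which lines the matrix side of complex IV, fell by 1.47 ± 0.18 in 6A and by 1.47 ± 0.18 in WT. Cox7c, another small structural subunit, had 27.0 and 24.7 CPM in 6A and 23.0 and 20.8 in WT at day 14, against 63.5 and 65.0 in 6A and 59.2 and 49.99 in WT at day 0, a fall of 1.31 ± 0.14 in 6A and 1.32 ± 0.14 in WT on the log2 scale (edgeR adjusted p = 1.1e-06 in both). Cox6c was among the 10 largest falls in 6A, at -1.10 ± 0.15, and also fell in WT, by 0.90 ± 0.15.

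In complex I the falls named by the rule were in Ndufa1, Ndufs6 and Ndufb10, all accessory subunits. Ndufb10 fell by 1.06 ± 0.13 in 6A on the log2 scale and was also called lower in WT. Ndufa1, which is X-linked, fell by 1.23 ± 0.22 in 6A and by 1.27 ± 0.22 in WT on the log2 scale. Ndufs6, whose promoter window with its NRF1 letters is printed above, had 25.4 and 21.4 CPM in 6A and 28.4 and 24.4 in WT at day 14, against 52.4 and 48.3 in 6A and 60.6 and 62.2 in WT at day 0. The days lay well apart, with log2 fold changes of -1.10 ± 0.14 in 6A and -1.22 ± 0.14 in WT (edgeR adjusted p = 8.4e-06 and 2.5e-06). In complex III, Uqcr10 had 40.5 and 34.7 CPM in 6A and 35.7 and 34.95 in WT at day 14, against 93.3 and 83.4 in 6A and 118 and 81.2 in WT at day 0, with no overlap between days. Its log2 fold change was -1.23 ± 0.17 in 6A and -1.49 ± 0.17 in WT (edgeR adjusted p = 1.5e-05 and 2.2e-06), and Uqcrq, another small subunit, stood at -0.90 ± 0.17 in 6A and -1.32 ± 0.18 in WT.

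Complex II also works in the citric acid cycle, and 1 of its 4 genes was called in neither genotype. Sdha, its flavoprotein, had 183 and 184 CPM in 6A and 159 and 179 in WT at day 14, against 274 and 268 in 6A and 262 and 277 in WT at day 0, and fell by 0.56 ± 0.11 in 6A and by 0.67 ± 0.11 in WT (log2; edgeR adjusted p = 0.00036 and 7.1e-05). Sdhd, a membrane anchor, fell by 0.64 ± 0.13 in 6A and by 0.58 ± 0.13 in WT. Sdhb, the iron-sulfur subunit, was called in WT at -0.52 ± 0.12 (edgeR adjusted p = 0.0014) and not in 6A at -0.23 ± 0.12 (adjusted p = 0.10), and that difference between genotypes did not pass the interaction test (0.29 ± 0.17, adjusted p = 0.40). Sdhc, the other anchor, was called in neither, at -0.28 ± 0.13 in 6A and -0.21 ± 0.13 in WT.

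**Figure D3:**
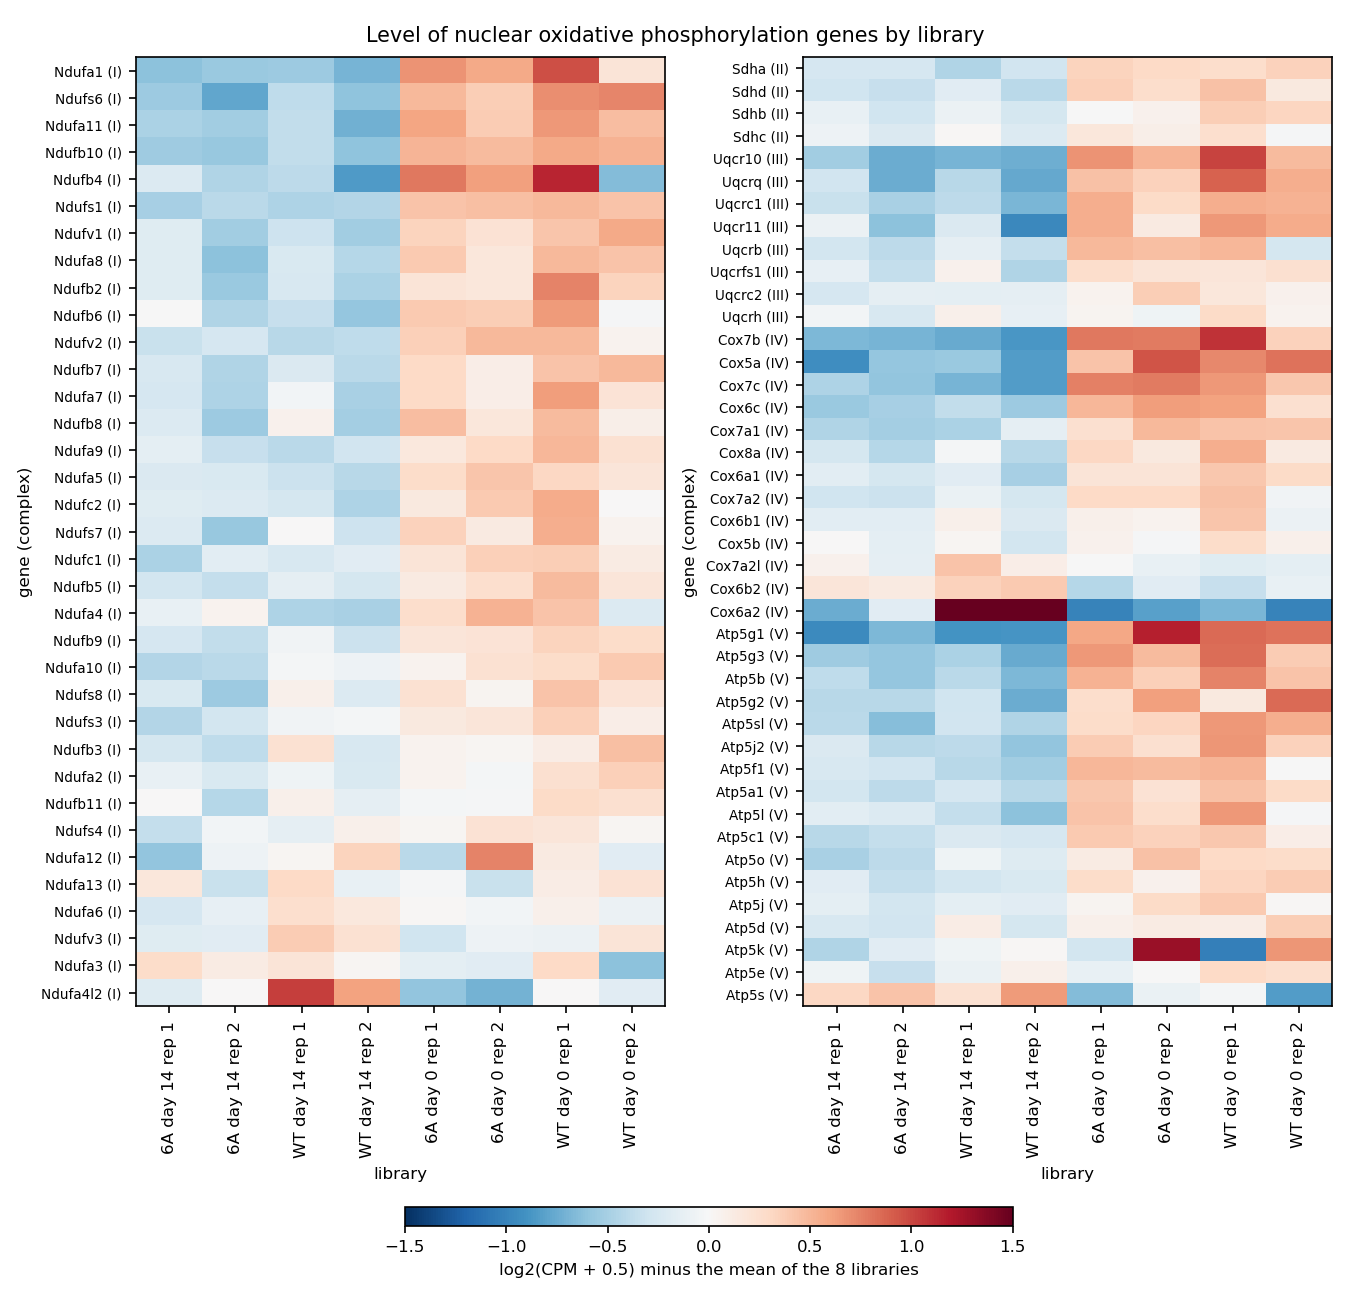
Level of 77 of the 78 tested genes in each library, as log2(CPM + 0.5) minus the mean of the 8 libraries, with genes grouped by complex and libraries in columns from 6A day 14 at the left to WT day 0 at the right. Most rows are blue in the day 14 columns and red in the day 0 columns. The rows of Atp5s and Cox6b2 run the other way, while those of Cox6a2 and Ndufa4l2 are clearly red only in the WT day 14 columns.

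A handful of genes rose in the differentiated cultures. Ndufa4l2, a relative of Ndufa4 known as a gene induced at low oxygen, had 9.17 and 10.6 CPM in 6A and 22.3 and 16.3 in WT at day 14, against 6.84 and 6.28 in 6A and 10.6 and 9.32 in WT at day 0. It rose by 0.60 ± 0.21 in 6A and by 0.95 ± 0.20 in WT on the log2 scale (edgeR adjusted p = 0.021 and 0.00058). Cox6b2, known as the testis form of Cox6b1, had 29.1 and 28.2 CPM in 6A and 32.8 and 33.7 in WT at day 14, against 18.9 and 22.7 in 6A and 20.1 and 23.6 in WT at day 0, without overlap. Its log2 fold change was 0.46 ± 0.15 in 6A and 0.60 ± 0.15 in WT (edgeR adjusted p = 0.013 and 0.0022), while Cox6b1 itself was not called, at -0.23 ± 0.15 in 6A and -0.25 ± 0.15 in WT.

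Atp5s, at 5.31 and 5.79 CPM in 6A and 4.98 and 6.80 in WT at day 14, against 2.48 and 3.87 in 6A and 4.07 and 2.12 in WT at day 0, rose by 0.78 ± 0.31 in 6A and by 1.03 ± 0.33 in WT (log2; edgeR adjusted p = 0.038 and 0.011). In 6A the rises of Atp5s, Ndufa4l2 and Cox6b2 each lost their call when some single libraries were left out, and that of Atp5s also with DESeq2, with adjusted p up to 0.22, 0.13 and 0.14 in that order. Atp5s in WT was lost without WT day 14 replicate 2 or WT day 0 replicate 2 (adjusted p up to 0.18). Cox7a2l, which helps complexes III and IV to assemble into supercomplexes, rose in WT only by the call, at 0.44 ± 0.14, against 0.03 ± 0.14 in 6A; the interaction of -0.41 ± 0.20 was not called (edgeR adjusted p = 0.28), and without WT day 14 replicate 1 the WT rise was not called either (adjusted p = 0.098). Cox6a2 is the remaining gene that rose in WT and is described with the muscle forms.

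Other cell markers and other gene groups moved between the days as well. Of all genes tested, 36.6% were called lower and 35.4% higher in 6A, and 36.8% lower and 38.4% higher in WT. The 5 pluripotency markers all fell in both genotypes, all 4 Y-linked feeder transcripts were lower at day 14, and 4 of 4 fibroblast markers were higher. Of the proteins of the cytosolic ribosome 70 of 82 tested fell in 6A and 76 in WT, with medians of -0.77 and -0.90. Of those of the mitochondrial ribosome 68 of 77 fell in 6A and 66 in WT, with medians of -0.91 and -1.07. The part of these changes in cell makeup in the lower levels of oxidative phosphorylation genes was not tested.

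Among the muscle forms of complex IV, Cox6a2 rose and Cox7a1 fell in WT. Cox6a2 had 1 and 4 counts in 6A and 40 and 46 in WT at day 14, against 0 and 1 in 6A and 1 and 0 in WT at day 0. Only the WT cultures at day 14 stood clear of the floor, at 4.64 and 3.64 CPM, against 0.0966 and 0.386 CPM in 6A at day 14. Cox6a2 thus passed the filter on low counts only through the WT day 14 group, where it is high. Its p-values are therefore not independent of that selection. The rise with differentiation in WT was 86 counts against 1, a depth-adjusted ratio of 90.01 with an exact 95% counting interval from 15.7 to 3596 (edgeR adjusted p = 4.5e-06). In 6A it was 5 counts against 1, a ratio of 6.44 with an interval from 0.720 to 305, and was not called (adjusted p = 0.12). The interaction was not called (log2 -3.81 ± 2.58, edgeR adjusted p = 0.48), with 1 count in each genotype at day 0.

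Cox7a1 was present before differentiation and lower after it. It had 2.12 and 2.03 CPM in 6A and 2.09 and 2.77 in WT at day 14, against 3.76 and 4.54 in 6A and 4.32 and 4.31 in WT at day 0. The days did not overlap, and the fall was 1.00 ± 0.28 in 6A and 0.80 ± 0.28 in WT on the log2 scale (edgeR adjusted p = 0.0056 and 0.018). Cox8b had 1 count over both 6A libraries and 4 over both WT libraries at day 14 and none at day 0, so a change was not detectable at this depth. The widely expressed partners fell. Cox6a1 fell by 0.40 ± 0.13 in 6A and 0.68 ± 0.13 in WT, Cox7a2 by 0.61 ± 0.15 and 0.39 ± 0.15, and Cox8a by 0.58 ± 0.16 and 0.57 ± 0.16.

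Shares per transcript length put these forms side by side. The muscle form made up 0.0697% and 0.3001% of the summed Cox6a2 and Cox6a1 level in 6A and 3.28% and 3.23% in WT at day 14, and at most 0.0606% in any day 0 library. Cox7a1 made up 5.20% and 5.08% of the Cox7a1 and Cox7a2 level in 6A and 4.50% and 6.53% in WT at day 14, against 6.05% and 7.20% in 6A and 6.27% and 8.602% in WT at day 0. Thus the genotypes overlapped for Cox7a1 and were well apart for Cox6a2. Cox8b stayed at or under 0.305% of the Cox8b and Cox8a level in all libraries. Among the testis forms, Cox6b2 took between 23.2% and 27.7% of its pair at day 14 and between 12.8% and 19.6% at day 0, Cox7b2 took at most 0.651%, and Cox8c was listed at 0 at day 14 and took at most 0.244% at day 0.

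**Figure D4:**
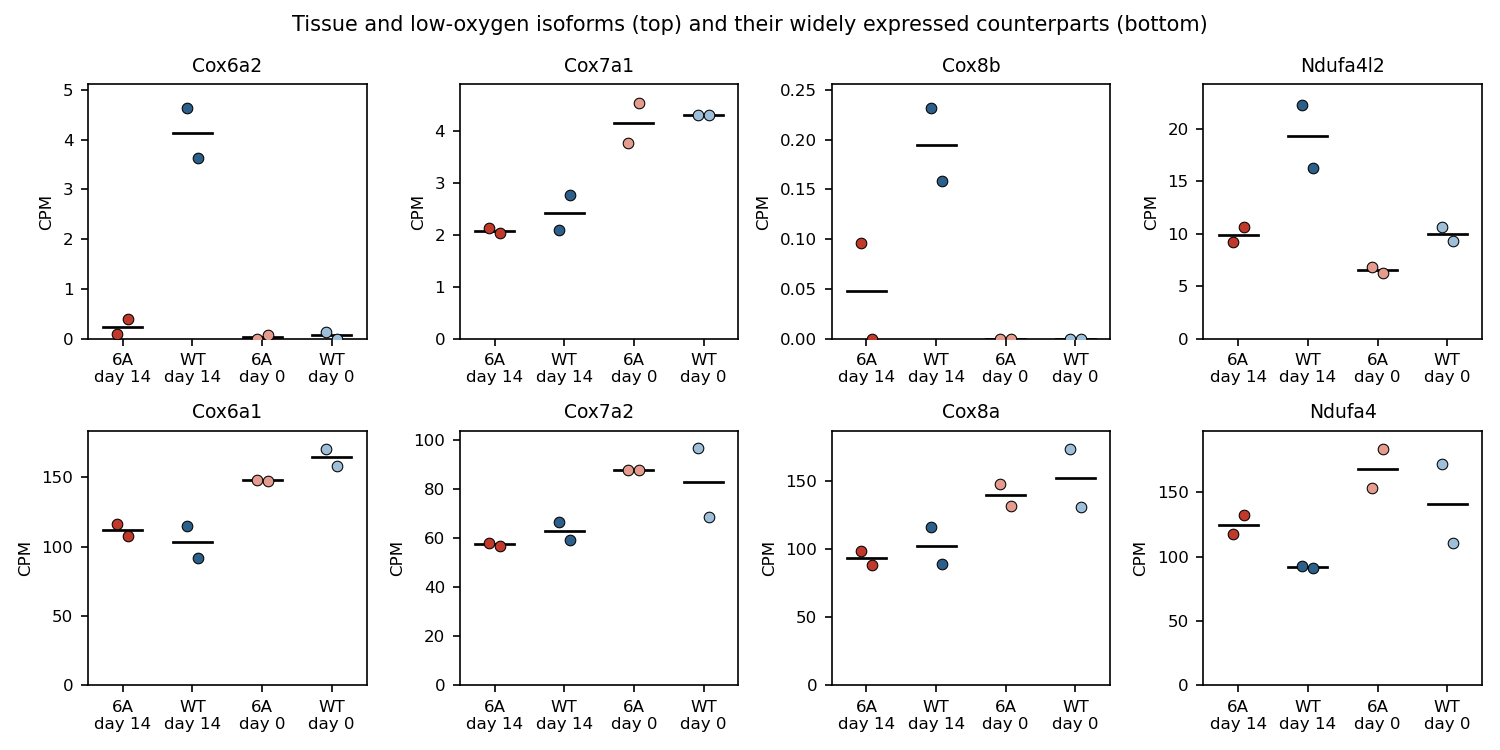
CPM of Cox6a2, Cox7a1, Cox8b and Ndufa4l2 (top row) and of their widely expressed partners (bottom row), with 1 point per library, a line at the mean of 2 libraries and groups from 6A day 14 at the left to WT day 0 at the right. Cox6a2 lies at 0.0966 and 0.386 CPM in 6A and at 4.64 and 3.64 in WT at day 14, and Cox7a1 is lower in all day 14 libraries than in any day 0 library.

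The 6A mutation was accompanied by few changes among these genes. At day 14, 3 of the 78 tested genes were lower in 6A than in WT and 0 were higher, where 8.31% of all genes tested were called lower, 5.33% higher and 13.6% in either direction. The median log2 fold change of the 78 genes was -0.05, beside 0.00 over all genes, and the sums per complex were between 0.966 and 1.02 times those of WT. At an unadjusted p under 0.05 there was 1 higher gene and 8 lower ones, and DESeq2 called 0 higher and 2 lower. At day 0 none was called in either direction, where 1.06% of all genes were called higher, 0.518% lower and 1.58% in either direction. At an unadjusted p under 0.05 there were 0 higher and 6 lower at day 0, and DESeq2 called none. The genotype by day interaction called none either (all genes 1.40% higher, 3.34% lower and 4.74% in either direction), with 0 genes at an unadjusted p under 0.05 by edgeR and none called by DESeq2.

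The largest difference was in Cox6a2. At day 14 its 5 counts in 6A stood against 86 in WT, a depth-adjusted ratio of WT over 6A of 16.7 with a 95% counting interval from 6.91 to 52.9. The fitted log2 fold change was -4.02 ± 0.57 (edgeR adjusted p = 0.00036), and from -5.25 to -3.37 over 15 alternatives. This p is of a gene that passed the filter on low counts only through the WT day 14 group, so it is not independent support. Without that filter the log2 fold change was -3.97. Both 6A libraries lay below both WT libraries. Markers of heart muscle were lower in the same 6A cultures. Their 12 genes summed to 308 and 291 CPM in 6A and 1559 and 1743 in WT at day 14, and 11 of 11 tested were lower, with a median of -2.74 on the log2 scale, while Nppa, at 0 and 0.193 CPM in 6A and 0.348 and 0.316 in WT, did not pass the filter. Myh7, a heart myosin, was at -4.40 ± 0.16 and Myh6 at -3.36 ± 0.21. Of 8 skeletal muscle markers 4 were tested and 0 were called, with a median of -0.50. Of all genes tested, 8.31% were called lower and 5.33% higher. Of the neuron markers 5 of 6 were lower, and they summed to 42.0 and 41.7 CPM in 6A against 169 and 168 in WT, while 4 of 5 markers of red cells and macrophages were higher, with sums of 130 and 136 in 6A against 43.1 and 41.0 in WT. The part of these differences in cell makeup in the lower Cox6a2 level was not tested.

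Ndufa4l2 was the second gene, at -0.95 ± 0.20 (edgeR adjusted p = 0.0051), with both 6A libraries below both WT libraries at day 14. At day 0 the same order held with -0.60 ± 0.21, which was not called (adjusted p = 0.18). This day 14 call did not hold without 6A day 14 replicate 1 or WT day 14 replicate 1, with adjusted p up to 0.079. Of all genes tested at day 14, 8.31% were called lower in 6A and 5.33% higher. Among 20 genes of glycolysis and the response to low oxygen, 6 were lower in 6A at day 14 and 0 were higher, with a median of -0.26. Among them Egln3, a proline hydroxylase induced at low oxygen, was at -0.93 ± 0.12, Pfkp at -0.64 ± 0.11 and Hk1 at -0.78 ± 0.18. Egln3 was lower at day 0 too, at -1.09 ± 0.16 (edgeR adjusted p = 0.0060). Their part in the lower Ndufa4l2 level was not tested.

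Ndufv3, an accessory subunit of the NADH-binding arm of complex I, had 41.3 and 41.6 CPM in 6A and 61.1 and 55.1 in WT at day 14, against 38.1 and 44.5 in 6A and 44.1 and 53.6 in WT at day 0. It was lower in 6A at day 14, at -0.48 ± 0.14 on the log2 scale (edgeR adjusted p = 0.035). That call was not made by DESeq2 and was lost when any 1 of the day 14 libraries was left out, with adjusted p up to 0.21. Over the 36 tested genes of complex I the median was -0.08. Ndufa4 was at 118 and 132 CPM in 6A and 92.4 and 91.0 in WT at day 14, without overlap, and its log2 fold change of 0.45 ± 0.18 was not called (adjusted p = 0.13). In a fit of the day 14 groups alone it was called higher (adjusted p = 0.0094), and Ndufa10 and Ndufa6, chosen after their values were seen, were called lower at -0.38 and -0.40.

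At day 0 the reading depended on which WT library was used. In the WT day 0 pair, 11 of the 78 genes differed by more than 1.5-fold, against 0, 1 and 2 genes in the pairs of 6A day 14, WT day 14 and 6A day 0. Of all genes tested, 11.6% differed that much in the WT day 0 pair, against 6.79%, 5.47% and 5.43% in the other pairs, in that order. The wider spread of this pair was thus not particular to the 78 genes. Replicate 2 was the lower one for most genes in every pair, for 55 in 6A and 62 in WT at day 14 and for 45 in 6A and 60 in WT at day 0. Without WT day 0 replicate 1, 4 genes were called higher in 6A, namely Atp5f1, Ndufa4, Ndufb4 and Uqcrb, at log2 fold changes from 0.48 to 1.401; these 4 were chosen after their values were seen. Without WT day 0 replicate 2 none was called. Ndufb4 and Atp5k, also picked after their values were seen, show the spread. Ndufb4 stood at 21.9 and 19.4 CPM in 6A against 28.1 and 7.77 in WT, and Atp5k at 5.73 and 18.0 CPM in 6A against 3.21 and 11.4 in WT at day 0.

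Genes that work beside these complexes were taken from lists chosen with earlier results of the data known. Among 8 further subunits and electron carriers, 3 fell and 1 rose in 6A with differentiation, and 5 fell and 1 rose in WT. Over all genes tested, 36.6% fell and 35.4% rose in 6A, and 36.8% fell and 38.4% rose in WT, and the counts of these lists were not tested against those shares. Cyc1, the cytochrome c1 of complex III, fell by 1.44 ± 0.14 in 6A and 1.67 ± 0.15 in WT. Cox4i2, the low-oxygen form of Cox4i1, rose by 1.75 ± 0.53 in 6A and by 3.13 ± 0.41 in WT, and at day 14 it had 1.16 and 1.16 CPM in 6A against 4.98 and 4.03 in WT. The 2 genotypes did not overlap, and the difference was -1.94 ± 0.36 on the log2 scale (edgeR adjusted p = 0.0023, at most 0.035 over 15 alternatives). Of 49 assembly factors 25 fell and 5 rose in 6A, and 28 fell and 6 rose in WT, among them Ndufaf4 at -2.02 ± 0.16 and -1.91 ± 0.17 and Ecsit at -1.78 ± 0.16 and -2.23 ± 0.16. Timmdc1, which helps build complex I, was the 1 assembly factor of 49 called between genotypes at day 14, at 0.44 ± 0.14. Its edgeR adjusted p of 0.049 was just under the threshold of 0.05. In that comparison 5.33% of all genes tested were called higher and 8.31% lower.

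The regulators of mitochondrial genes include several factors whose letters were searched above. Nrf1 fell by 1.09 ± 0.11 in 6A and by 1.07 ± 0.11 in WT with differentiation, and Gabpa by 1.03 ± 0.12 and 0.90 ± 0.12. Tfam, a transcription factor that packs mitochondrial DNA and whose letters were not searched, fell by 1.33 ± 0.12 and 1.42 ± 0.13. In all, 12 of 24 fell and 7 rose in 6A, and 12 fell and 8 rose in WT, beside the shares of all genes just given. The median change of the 24 was -0.17 in 6A and -0.24 in WT on the log2 scale. Mef2c, of the family whose MEF2 letters were also searched, rose by 3.99 ± 0.17 in 6A and by 4.91 ± 0.19 in WT. It was among the 4 regulators with the smallest p in each genotype, and the other 3 fell. Esrrb fell by 3.41 ± 0.13 in 6A and by 4.19 ± 0.14 in WT, Pprc1 by 1.59 ± 0.14 and 1.80 ± 0.14, and Myc by 1.46 ± 0.13 and 1.74 ± 0.13. Nrf1, Gabpa and Tfam were picked for these roles and not by the size of their change. Ppargc1a, the coactivator PGC-1 alpha, rose with differentiation by 3.10 ± 0.53 in 6A and by 5.54 ± 0.49 in WT, with 2.61 and 3.96 CPM in 6A and 11.5 and 14.2 in WT at day 14, against 0.171 and 0.534 in 6A and 0 and 0.424 in WT at day 0. Its level was lower in 6A than in WT at day 14, at -1.97 ± 0.32 on the log2 scale (edgeR adjusted p = 0.0011, at most 0.033 over 15 alternatives), while heart and neuron markers were lower in the same libraries, as given with Cox6a2. Mef2a was higher in 6A at day 0 (0.56 ± 0.12, edgeR adjusted p = 0.042), a call lost in 10 of 15 alternatives. In the citric acid cycle, 11 of 16 genes fell in each genotype with differentiation, with Idh3g at -1.67 ± 0.12 in 6A and -1.52 ± 0.12 in WT and Mdh2 at -1.19 ± 0.14 and -1.52 ± 0.14.

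Reads that could be given to an allele were compared for 63 of the 82 genes, those with a mean of at least 10 such reads. The share of 129 reads is the number of 129 reads over all allele reads of the gene. Over all genes it was between 79.9% and 80.8% in each library, so it does not sit at an even split. Among 61 autosomal genes of the set, 36 had at least 90% 129 reads in 6A and 36 in WT at day 14, and 33 in 6A and 34 in WT at day 0. The labels do not say how reads were given to an allele, and shares are compared only between groups of the same gene.

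Between genotypes, 0 of 63 genes differed in allele ratio at day 14 by edgeR, where 0.0398% of all 12575 genes were called, with 3 at an unadjusted p under 0.05. At day 0 there was 1, where 0.167% of all genes were called. Between days 6 were called in 6A and 7 in WT, where 19.2% and 16.3% of all genes were called. Ndufb11, an X-linked accessory subunit of complex I, changed between days in both genotypes. Its 129 share was 12.1% (41 of 340 reads, 95% Wilson interval 9.01 to 15.95) and 18.5% in 6A and 9.97% and 8.11% in WT at day 14, against 51.5% and 52.5% in 6A and 46.9% and 51.7% in WT at day 0. The even split of day 0 was lost in all day 14 libraries, while the total level was not called different, at -0.18 ± 0.15 in 6A and -0.29 ± 0.14 in WT. The log2 difference in allele ratio was -2.64 ± 0.25 in 6A and -3.32 ± 0.25 in WT (edgeR adjusted p = 7.3e-25 and 1.9e-37), and 6A and WT were not called different at day 14 (adjusted p = 1). Of all X-linked genes tested, 76.9% were called between days in 6A and 74.1% in WT. Cox7b had 26 allele reads in 6A and 28 in WT at day 14 and was called between days in WT (edgeR adjusted p = 0.013) but not in 6A (adjusted p = 0.18), a call lost in WT without 3 of the single libraries, and Ndufa1 had no allele reads.

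**Figure D5:**
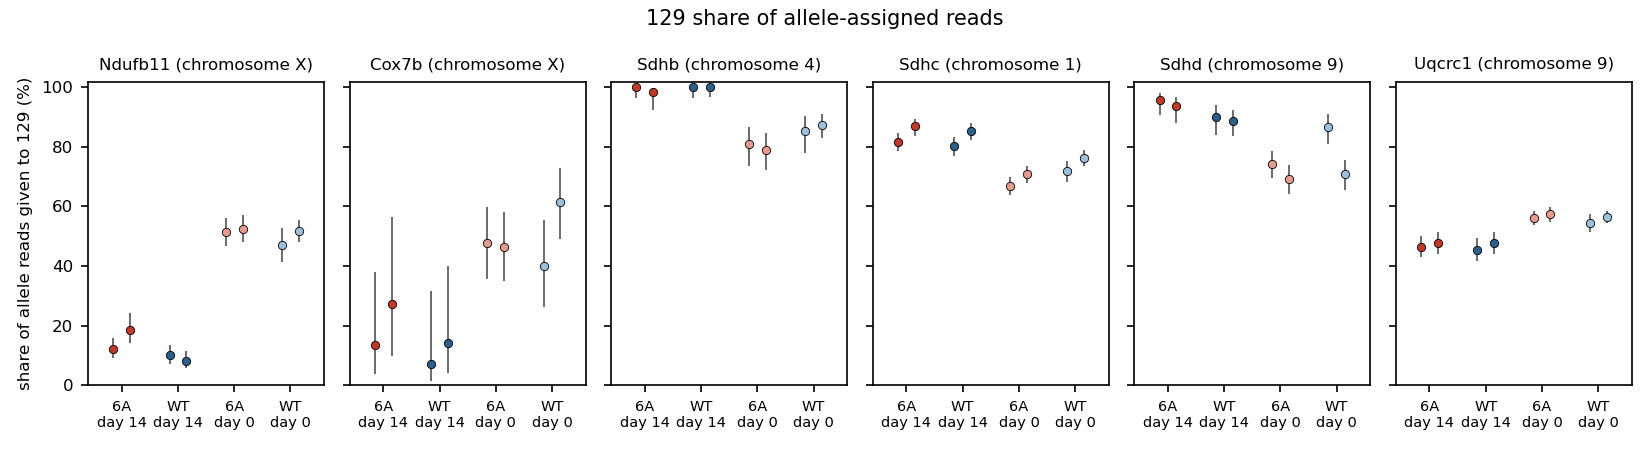
Share of 129 reads among the allele reads of single genes (percent), with 1 point per library, 95% Wilson intervals and groups from 6A day 14 to WT day 0. Ndufb11 lies between 8.11% and 18.5% at day 14 and between 46.9% and 52.5% at day 0, while Sdhb lies between 98.6% and 100% at day 14 and between 79.0% and 87.5% at day 0.

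Some autosomal genes moved towards 129 with differentiation. Sdhb, Sdhc and Sdhd did so in both genotypes. Sdhb had 100% and 98.6% in 6A and 100% and 100% in WT at day 14, against 80.9% and 79.0% in 6A and 85.2% and 87.5% in WT at day 0. Uqcrc1 went the other way, at 46.4% and 47.8% in 6A and 45.4% and 47.7% in WT at day 14, against 56.1% and 57.3% in 6A and 54.5% and 56.5% in WT at day 0 (edgeR adjusted p = 0.0067 in 6A and 0.018 in WT). The Y-linked transcripts were present at day 0 and near 0 at day 14, and at day 0 their sum was higher in 6A than in WT. The part of feeder RNA in these allele shares was not tested. In WT the shifts of Sdhc and Sdhd each lost their call without some single libraries, with adjusted p up to 0.26 and 0.84.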

How the data were processed

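Total RNA was depleted of ribosomal RNA and sequenced as 150-base paired-end reads from directional libraries, per the labels' protocols. Per the submitters' processing notes, cutadapt 1.4.2, STAR 2.7.10a and the build mm10 were used. No counting tool, strand setting, annotation or allele assignment was given in the sources used here. Raw counts per gene were deposited by the authors for all, CAST and 129 reads. From these, edgeR 4.0.16 (R 4.3.3; filterByExpr, TMM, robust quasi-likelihood, 1 coefficient per group, 4 residual degrees of freedom) gave fold changes ± standard errors, checked on simulated data. The allele fit took 129 against CAST with a term per library. Named genes are isoform pairs, c subunit, Sdh and X-linked genes, up to 10 called rises and falls per comparison, the extreme levels and up to 4 called genes per list. Members and lists were chosen with earlier results of these data known. Symbols matched GENCODE M21 directly for 23264 genes, by an older symbol for 672 and not for 485. Alternatives were DESeq2 1.42.0, other scalings, no filter, a replicate block, the compared groups alone, and each library left out. The protocol speaks of biological replicates without naming cultures or clones, so p-values measure only the spread between these samples. With 2 against 2 libraries an exact permutation test cannot go below p = 0.333. Intervals cover counting error only. Results of 1 gene are not reported here.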

Additional observations from a re-analysis of the deposited data

Results flagged for a closer look

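A regulator and an enzyme outside the member list had a genotype difference that changed between the days. Esrrb, an orphan nuclear receptor of pluripotent cells, was at 60.1 and 76.6 CPM in 6A and 45.3 and 45.3 in WT at day 14, and at 728 and 728 in 6A and 800 and 854 in WT at day 0, with an interaction of 0.78 ± 0.18 on the log2 scale (edgeR adjusted p = 0.025). That call was lost in 5 of 14 alternatives, all of them fits without 1 library, with adjusted p up to 0.12. Of 5 pluripotency markers, 2 were also called higher in 6A at day 14 and 0 lower, where 5.33% of all genes tested were called higher and 8.31% lower. The sum of the 5 was 412 and 416 CPM in 6A and 340 and 320 in WT at day 14, Nanog was higher in 6A at 0.56 ± 0.13 and Zfp42 at 0.51 ± 0.11 (edgeR adjusted p = 0.011 and 0.0088), and Zfp42 had an interaction of 0.60 ± 0.15 (adjusted p = 0.043). Their part in the Esrrb difference was not tested. Suclg2, a subunit of succinyl-CoA synthetase, was at 80.9 and 70.3 CPM in 6A and 49.5 and 43.0 in WT at day 14, and at 47.1 and 48.1 in 6A and 65.3 and 44.6 in WT at day 0, with an interaction of 0.91 ± 0.24 (edgeR adjusted p = 0.043). It was lost in 8 of 14 alternatives, with adjusted p up to 0.21.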

How the results depend on the processing

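No called result changed direction under the alternatives run, except that medians near 0 changed sign within the spread between replicates, and 25 of 40 calls of named genes held in all of them. Scaling by total counts moved the median of all genes to 0.10 in 6A and 0.24 in WT between days, and that of the members to -0.44 and -0.40; upper quartile scaling gave -0.46 in 6A. Relative to all genes the members stood at -0.54 in 6A and -0.64 in WT, against -0.55 and -0.64 with TMM. Members lower in 6A at day 14 numbered 5 with total counts, 5 with the replicate block and 5 with only those groups, which also gave 1 higher; the cause was not tested. Replicate numbers are shared by label, and same-numbered libraries deviated together with correlations of only 0.0042 to 0.237, so the block is given for its count alone. Leaving out 1 library gave 1 to 5 lower and 0 to 1 higher at day 14 (1 lower without 6A day 14 replicate 1 or WT day 14 replicate 1, 5 without either WT day 0 library), 0 to 4 higher at day 0, 0 to 1 lower in the interaction (Ndufa12 without 6A day 0 replicate 1, Uqcrb without WT day 0 replicate 1), 1 to 4 higher between days in 6A with a median from -0.64 to -0.49, 0 to 1 allele changes at day 0 and 4 to 7 between days in WT. With 2 libraries a group, an effect of 1 library cannot be separated from the spread, and genes near the floor of 3 counts were not resolved.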

Other observations

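Genes of fatty acid oxidation and of mitochondrial carriers were also measured. Of 16 tested fatty acid genes, 5 rose and 4 fell with differentiation in 6A, and 6 rose and 4 fell in WT, where 35.4% of all genes were called higher and 36.6% lower in 6A, and 38.4% higher and 36.8% lower in WT; the list was not tested against the subunit genes. Acadm, which oxidises medium-chain fatty acids, fell by 1.23 ± 0.11 in 6A and by 0.92 ± 0.11 in WT on the log2 scale. Cd36 rose by 3.94 ± 0.42 in 6A and by 8.41 ± 0.84 in WT. The other genes with the smallest p were Etfdh and Acadvl in 6A, which rose by 0.93 ± 0.14 and 0.71 ± 0.14. In WT they were Fabp3 and Acads, which fell by 1.23 ± 0.20 and 0.82 ± 0.15. Cpt1a, which loads fatty acids for import, was at 80.6 and 91.7 CPM in 6A and 61.6 and 58.4 in WT at day 14, a difference of 0.52 ± 0.13 (edgeR adjusted p = 0.016, lost without 3 of the single day 14 libraries). Slc25a5, an X-linked ADP/ATP carrier, fell by 2.22 ± 0.17 in 6A and by 2.43 ± 0.17 in WT, whereas Slc25a4, chosen after its values were seen and the carrier known from heart and skeletal muscle, was not called, at -0.08 ± 0.12 and 0.09 ± 0.12. Ucp2, an uncoupling protein, was at 134 and 105 CPM in 6A and 65.8 and 65.1 in WT at day 14, a difference of 0.87 ± 0.23 (edgeR adjusted p = 0.035, lost in 4 of 15 alternatives).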
